A study of Mus musculus with 30 samples.

Results

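The skin of wild type (WT) mice 1 day after the last dose of the irritant TPA was compared with the skin of WT controls, designated day 0, on 6 of the 30 arrays of the series (3 at each day). All 36029 probe sets that passed a filter on low levels were read. The mice were female, of a mixed 129–C57BL/6 background and 8 to 12 weeks old, and each array held RNA from the whole shaved back skin of a separate mouse. On day 1, TPA (50 µM in acetone) had been painted on the skin 3 times, 24 h apart, and the methods describe the day 0 mice as painted with acetone, whereas their sample titles call them untreated. The series was designed to follow inflamed skin at days 1, 2, 4 and 6 in both WT and D6-deficient animals, the latter carrying a null allele of the scavenging chemokine receptor D6 (Ccbp2 on the array), and the other 24 arrays serve here for the shared estimate of spread and where a level at another day or genotype is given.

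TPA is a phorbol ester that activates protein kinase C and, through it, transcription factors of the AP-1 family. Painted on mouse skin it makes keratinocytes divide, thickens the epidermis, and draws in leukocytes through cytokines and chemokines released by the epidermis itself. The keratinocytes of such skin switch on keratins and cornified envelope proteins that are scarce in resting interfollicular epidermis. Whole back skin also contains hair follicles with their melanocytes, sebaceous glands, dermis, fat and the thin muscle sheet under it. In RNA from the whole tissue, fewer cells of a type and less RNA per cell cannot be told apart.

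Levels are given as the log2 of the deposited array intensity, changes as differences of log2 levels (day 1 minus day 0), fold changes on the linear scale, and SE as the standard error of a change. A probe set is the group of oligonucleotides that measures 1 transcript, and a call required an adjusted p under 0.05 (limma, Benjamini-Hochberg) and a change past 3-fold in either direction. Where several probe sets measure a gene, the brightest over the 30 arrays is quoted. Of the called genes given by a fixed naming rule, 12 had another probe set that was not called, 0 of them with the opposite sign. Further called members of a gene list, which are given by their change alone, were chosen after their values were seen. Probe sets of near-identical genes such as the Sprr2, Lce and keratin families can take up each other's transcripts. The keratinocyte genes Krt5 and Krt14 were at 12.07 to 12.26 and at 12.65 to 12.83 on the day 0 arrays, as the tissue label implies. Of the 3 probe sets of the targeted D6 gene, 1 separated the genotypes, with the 15 D6-deficient arrays at 3.30 to 3.86 and the 15 WT arrays at 4.15 to 5.76. Arrays of the same day correlated at 0.9862 to 0.9922 (Pearson, across probe sets), and day 0 and day 1 arrays at 0.9612 to 0.973. Among the treated arrays, replicate 2 had the lowest level in 269 of the 335 probe sets called higher. Among the controls, replicate 1 stood apart in some epidermal genes, which is shown beside those genes. The spiked-in hybridization controls split the arrays into a bright and a dim set, with 2 of the day 0 arrays but 1 of the day 1 arrays in the bright set.

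At day 1, 636 of 36029 probe sets were called (1.77%), 335 of them higher (0.930%) and 301 lower (0.835%). They represented 272 genes that rose and 210 that fell. In a short gene list, 0 or 1 call does not stand out from the 1.77% called over all. Without the fold threshold, 4101 probe sets were higher (11.4%) and 4559 lower (12.7%). The changes reached 7.66 upward and -4.39 downward, around a median of -0.01. The 3 day 1 arrays lay above the 3 day 0 arrays in 334 of the 335 probe sets called higher, against 19.3% of all tested, and below them in 298 of the 301 called lower, against 20.2%, which the choice of called probe sets on the same 6 arrays largely fixes. With 3 mice a group, an exact permutation test over mice has a floor of p = 0.1, so the calls rest on limma's pooled spread. Leaving out day 1 replicate 1 gave the fewest calls, 498, and leaving out day 1 replicate 2 the most, 722.

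**Figure D1:**
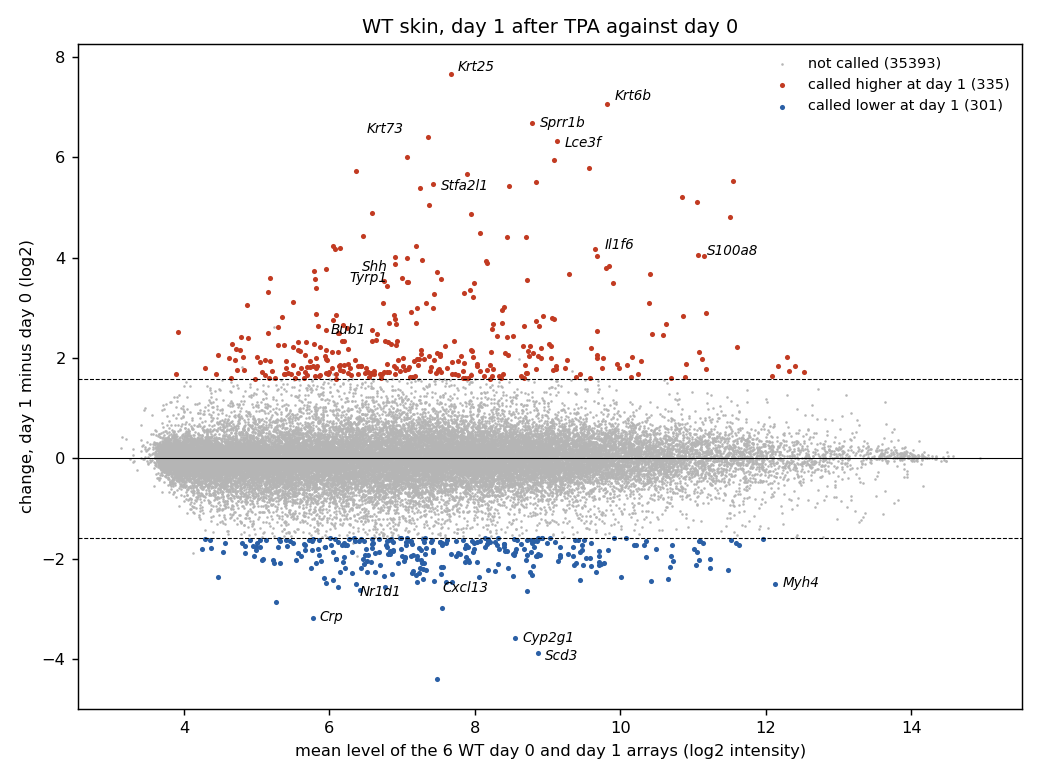
Change at day 1 (y axis, log2 day 1 minus day 0) of every tested probe set against its mean level on the 6 WT arrays (x axis, log2 intensity), with called probe sets in colour, others in grey, and dashed lines at 3-fold. The 335 probe sets called higher reach further from 0 than the 301 called lower, up to Krt25 at 7.66.

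The gene with the largest rise was Krt25, a keratin of the inner root sheath of the hair follicle. Its level was 3.72, 4.15 and 3.65 in the control mice and 12.42, 9.91 and 12.16 in the treated mice, a change of 7.66 (SE 0.46, adjusted p = 1.22e-10) or 202-fold. Next came Krt6b, a keratin that the epidermis makes under stress, at 8.65, 4.14 and 6.05 before and 13.62, 12.76 and 13.67 after. The rise of Krt6b was 134-fold although its control mice ran from 4.14 to 8.65. In both genes the lowest treated mouse was above the highest control mouse. The largest falls were smaller than the largest rises. Scd3, a stearoyl-CoA desaturase of the sebaceous gland, went from 10.69, 11.23 and 10.49 to 6.35, 7.65 and 6.78 (14.7-fold lower), and Cyp2g1, a cytochrome P450, fell 12.0-fold.

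**Figure D2:**
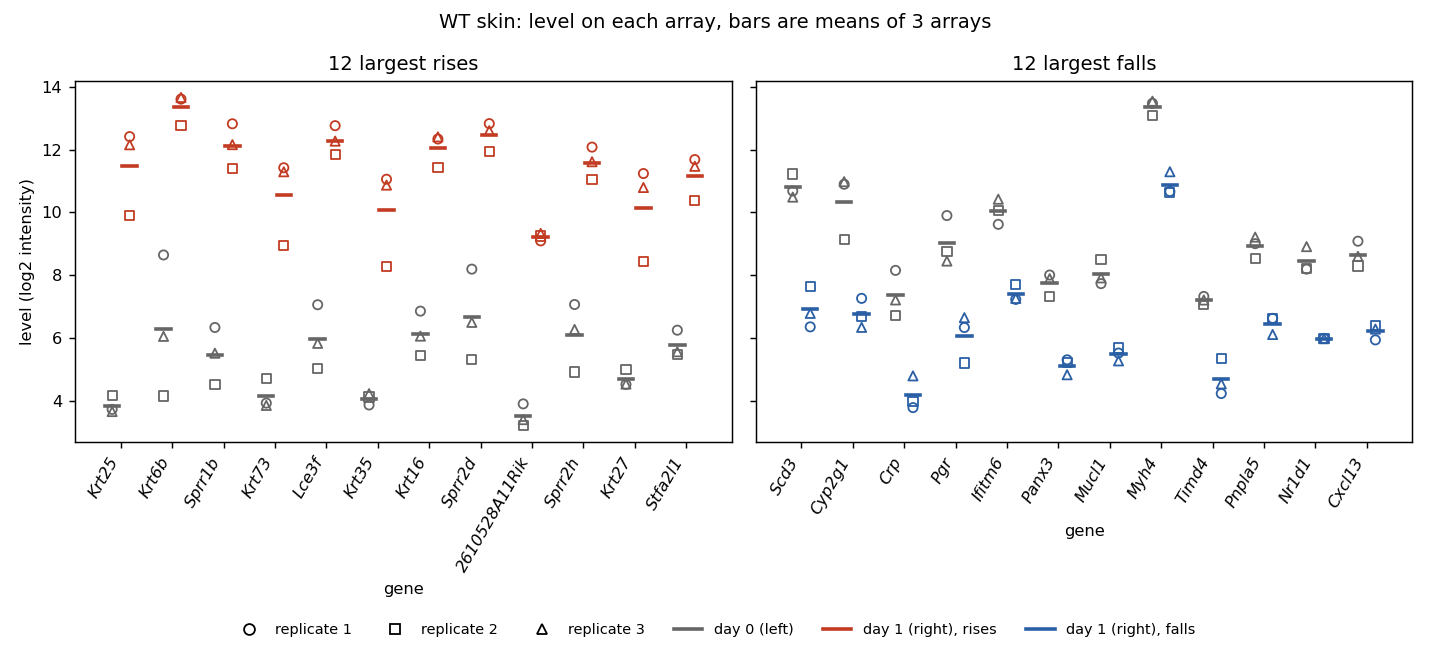
Level on each of the 6 WT arrays (log2 intensity) of the 12 genes with the largest rises (left) and the 12 with the largest falls (right), with grey marks for day 0, coloured marks for day 1, symbols for replicates and bars for means of 3 arrays. In these genes the marks of both days are apart, and day 1 replicate 2 (square) lies well under the other treated mice in Krt25, Krt73, Krt35 and Krt27.

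Most stress keratins rose. The keratins of this list (Krt6a, Krt6b, Krt16, Krt17 and Krt75) are scarce in resting epidermis between follicles and appear in wounded and hyperproliferative epidermis. Of 8 probe sets tested, 6 were called higher and 0 lower, with a median change of 3.59, against -0.01 over all probe sets. Krt16 went from 6.85, 5.43 and 6.06 to 12.34, 11.42 and 12.41, a 61.6-fold rise (SE 0.54 on a change of 5.95, adjusted p = 6.01e-08). Krt6a rose by 3.68 on its brightest probe set and by 3.79 and 3.49 on the others. Krt17 rose by 1.59, just past the fold threshold, and its call was lost without day 1 replicate 2 (1.51) or day 0 replicate 3 (1.53). Krt75, a keratin of the hair follicle's companion layer, passed neither threshold (0.86, SE 0.57, adjusted p = 0.307).

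The keratins of the regular epidermis moved less. Of 11 probe sets for basal and differentiation keratins, 1 was called: Krt1, the first keratin of the suprabasal layers, rose by 1.72 (SE 0.48, adjusted p = 0.0109). Basal Krt14 was 12.69, 12.65 and 12.83 in the control mice and 13.66, 13.55 and 13.66 in the treated mice, a change of 0.90 that passed the adjusted p (1.85e-04) but not the fold. Its partner Krt5 changed by 0.51 (adjusted p = 0.00863). Krt10, the partner of Krt1, differed by 0.37 (SE 0.42, adjusted p = 0.583), from day 0 levels of 13.59 to 13.66.

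Small proline-rich proteins, which are cross-linked into the cornified envelope and are made in quantity by irritated epidermis, had the highest median change of the lists, 4.65. Of their 8 probe sets, 6 were called higher, each for a different gene, and 0 lower. Sprr1b was 6.33, 4.51 and 5.51 in the control mice and 12.83, 11.39 and 12.16 in the treated mice, a 102-fold rise (adjusted p = 1.65e-08). Sprr2d rose 55.4-fold, Sprr2h 45.5-fold and Sprr2f 33.3-fold. Sprr2i rose by 4.24 and Sprr1a by 2.89, the latter from a control level of 9.20 to 10.43. Control replicate 1 had the highest day 0 level in 5 of the 6, and the count was 7 without it.

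AP-1 factors recognise the letters TGANTCA, which read the same on both strands, and the Sprr genes lie beside each other on chromosome 3. The promoters of RefSeq (GRCm38.p6, 250 bases before to 50 after each start) were searched for these letters after the values were seen. All 6 called Sprr genes held a match, against 7.81% of 32851 promoters and 7.05% of the 12791 genes with both a tested probe set and a promoter. Of the genes called higher, 29 of the 199 with a promoter held one (14.6%), and of the genes called lower 13 of 137 (9.49%). A gene with several starts was counted when any of them held the letters. The windows of the 6 Sprr genes and of Ivl, Flg and Rptn from the same chromosome are shown because these genes rose and hold the letters, and the whole promoter of Krt25 because it rose most and does not. The Sprr2 genes are related copies and share letters around the match. Capitals mark TGANTCA, and each sequence runs in the direction of its gene.
Sprr1b, chr3:92438854-92438920, minus strand: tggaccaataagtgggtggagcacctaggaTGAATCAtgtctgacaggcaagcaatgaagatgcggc
Sprr2d, chr3:92338917-92338983, plus strand: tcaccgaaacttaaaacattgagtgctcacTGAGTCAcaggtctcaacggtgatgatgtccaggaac
Sprr2h, chr3:92385457-92385523, plus strand: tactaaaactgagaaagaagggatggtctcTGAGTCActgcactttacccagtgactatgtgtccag
Sprr2f, chr3:92364960-92365026, plus strand: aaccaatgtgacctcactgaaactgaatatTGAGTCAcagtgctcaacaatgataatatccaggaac
Sprr2i, chr3:92407768-92407834, plus strand: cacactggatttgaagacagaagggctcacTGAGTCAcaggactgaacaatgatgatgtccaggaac
Sprr1a, chr3:92485961-92486027, minus strand: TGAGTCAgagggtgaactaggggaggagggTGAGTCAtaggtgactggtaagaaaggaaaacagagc
Ivl, chr3:92573815-92573881, minus strand: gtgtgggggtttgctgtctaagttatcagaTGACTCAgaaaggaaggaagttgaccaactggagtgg
Flg, chr3:93273413-93273479, plus strand: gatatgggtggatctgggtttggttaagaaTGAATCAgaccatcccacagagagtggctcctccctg
Rptn, chr3:93393573-93393639, plus strand: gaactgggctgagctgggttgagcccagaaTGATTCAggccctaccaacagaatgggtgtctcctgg
Krt25, chr11:99322902-99323201, minus strand: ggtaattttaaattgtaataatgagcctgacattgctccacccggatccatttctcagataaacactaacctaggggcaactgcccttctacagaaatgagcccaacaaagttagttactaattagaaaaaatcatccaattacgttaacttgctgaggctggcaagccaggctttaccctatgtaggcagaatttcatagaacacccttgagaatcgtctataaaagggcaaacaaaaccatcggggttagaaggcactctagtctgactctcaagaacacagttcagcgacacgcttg

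The matches in Sprr2d, Sprr2f, Sprr2i and Sprr2h began 193, 197, 193 and 198 bases before the start, and those in Sprr1b and Ivl 111 and 116 bases before it. In Sprr1a there were 2, at 146 and 116 bases. Of the 11 called barrier genes with a promoter, Ivl, Flg and Rptn held a match and the other 8 did not. Of 5 called IL-1 family genes 3 held one, Il1a, Il1f8 and Il1rn, the last at 1 of its 3 starts. None of the 9 called hair keratin genes with a promoter, of the 17 called cell cycle genes or of the 4 called pigment genes held a match in this window. The letters TTCNNNGAA, read by STAT factors on either strand, were in 8.54% of the promoters of genes called higher and in 8.39% of those of tested genes. An NF-κB motif on either strand (GGG, any 5 letters, CC) was in 63.8% and 69.3%. A match is a run of letters and was not tested as a binding site. Of the 266 genes called higher with a known position, 35 were on chromosome 3 (13.2%), against 5.03% of the tested genes.

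Late cornified envelope genes and other barrier genes rose beside the Sprr genes. Of 39 probe sets, 13 (12 genes) were called higher and 0 lower, 33 passed the adjusted p upward and 2 downward, and the median change was 1.27. Within the late cornified envelope family, Lce3f was 7.06, 5.03 and 5.83 in the control mice and 12.77, 11.84 and 12.28 in the treated mice (80.1-fold), Lce3a rose 41.7-fold and Lce3c 16.5-fold. Lce1f, Lce1g and Lce1h rose by 1.75, 2.16 and 2.02. Casp14, the caspase that helps to break down filaggrin in the outer epidermis, went from 8.13, 7.88 and 7.78 to 12.11, 11.29 and 11.90, a 14.3-fold rise with a small spread (SE 0.26, adjusted p = 8.08e-10). A dimmer probe set of Casp14 rose by 0.48 (adjusted p = 0.0248). The filaggrin gene Flg rose 8.59-fold, the related Rptn by 3.67, the filaggrin-processing protease Asprv1 by 1.84 and involucrin, Ivl, 3.70-fold. Loricrin (Lor), a main protein of the mature envelope, was 13.52, 13.47 and 13.42 against 14.03, 14.03 and 13.95, which did not overlap but had an adjusted p of 0.472.

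Protease inhibitors and antimicrobial proteins of the epidermis rose in part. Stfa2l1 and Stfa3, cysteine protease inhibitors of the stefin A cluster, rose 42.9-fold and 34.5-fold and were the 2 called of 22 probe sets in their list. Among 23 probe sets of clade B serpins, Serpinb3a (21.5-fold) and Serpinb12 (13.1-fold) rose and Serpinb6e fell by 1.81. Of 22 probe sets for antimicrobial proteins, 8 were called higher and 0 lower. S100a8 and S100a9, the subunits of calprotectin, are made by keratinocytes under stress as well as by neutrophils. S100a8 was 11.15, 7.74 and 8.23 in the control mice and 13.44, 12.49 and 13.34 in the treated mice, and its partner S100a9 was 10.93, 8.03 and 8.43 against 13.46, 12.61 and 13.42. In both genes control replicate 1 was well above the other controls, and the rises were 16.6-fold and 16.4-fold. The β-defensin Defb3 rose 18.1-fold from a day 0 level of 4.05, 4.07 and 3.84, and the chitinase-like Chi3l1 15.2-fold.

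**Figure D3:**
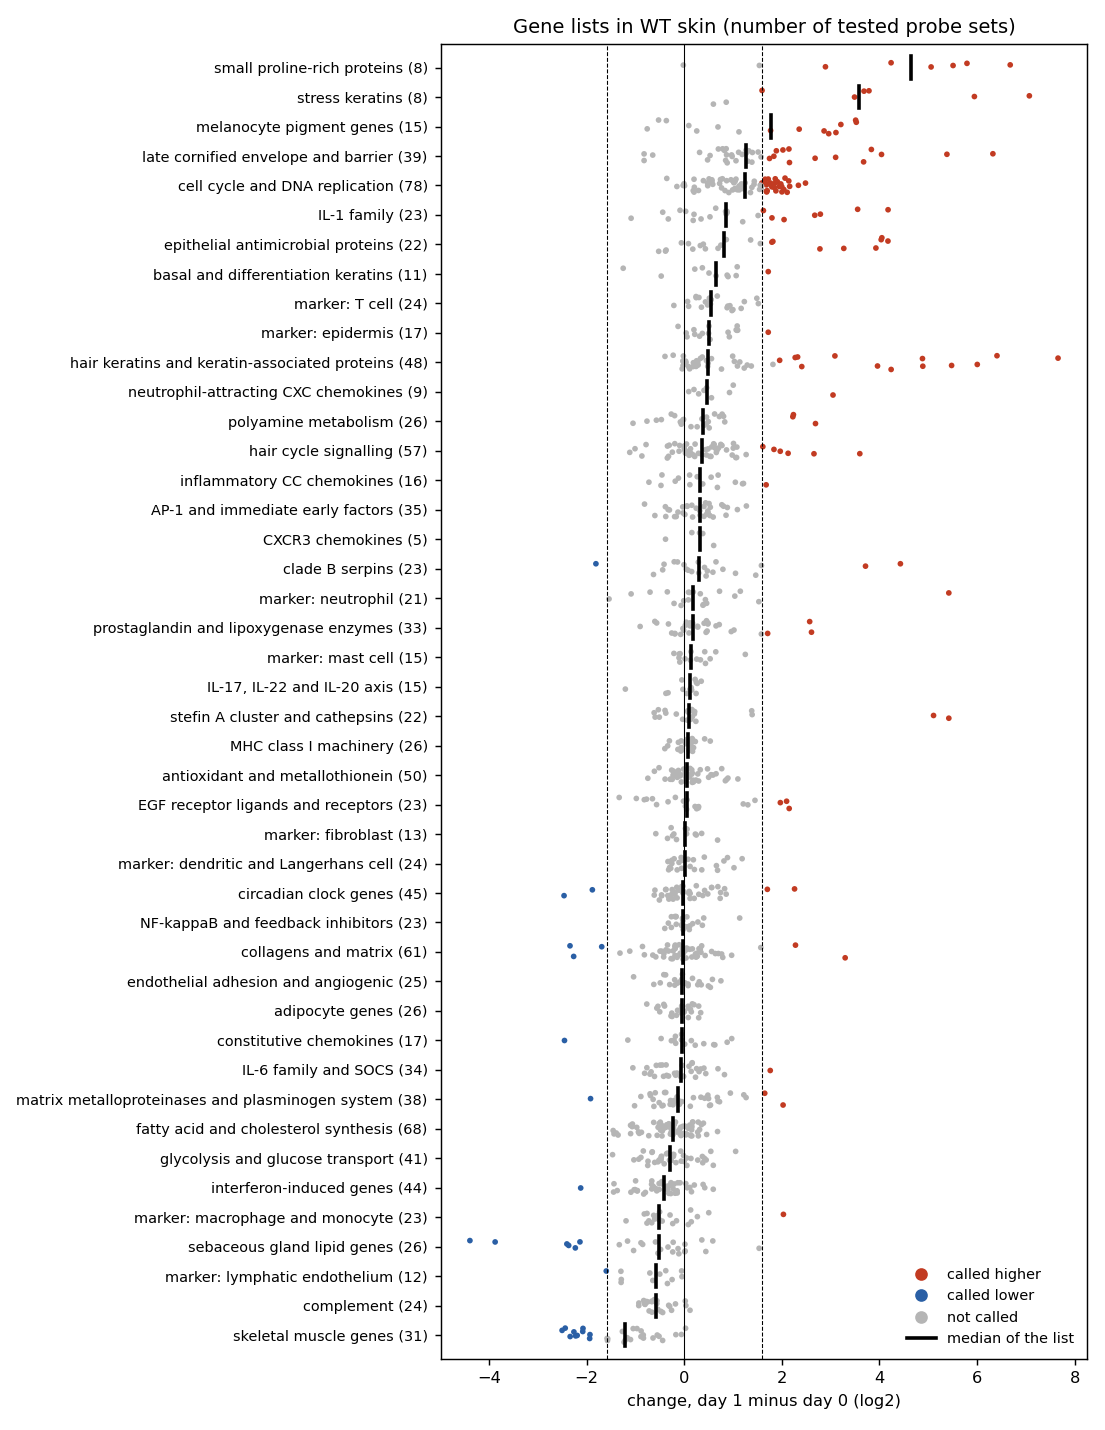
Change at day 1 (x axis, log2) of each tested probe set of the gene lists (y axis, number of probe sets in brackets), ordered by median, with called probe sets in colour and dashed lines at 3-fold. Small proline-rich proteins (4.65), stress keratins (3.59) and pigment genes (1.77) have the highest medians, and skeletal muscle genes (-1.21) the lowest.

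Of the interleukin-1 family, 7 of 23 probe sets were called higher and 0 lower, and 15 passed the adjusted p upward. The largest rises were those of the IL-36 cytokines, named Il1f6, Il1f8 and Il1f9 on the array, which keratinocytes release and which act on neighbouring keratinocytes and leukocytes. Il1f6 went from 8.43, 6.32 and 7.95 to 12.12, 11.33 and 11.77 (18.1-fold, SE 0.44 on a change of 4.18, adjusted p = 5.07e-07). Il1f8 rose 11.7-fold and Il1f9 6.91-fold. The IL-36 receptor antagonist, Il1f5, rose 6.38-fold, and the IL-1 receptor antagonist, Il1rn, by 1.62. Thus agonists and antagonists of the family were both higher. The alarmin Il1a rose 3.48-fold, a call that was lost without control replicate 2 (1.55). Il1b was 7.20, 6.92 and 7.45 in the control mice and 9.20, 8.49 and 8.42 in the treated mice, which passed the adjusted p (0.00129) but not the fold, at 2.85-fold. The decoy receptor Il1r2 was lower by 1.09 (adjusted p = 8.65e-04).

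Of the other cytokines and chemokines, few were called. Il6, a cytokine of acute inflammation, rose 3.39-fold (adjusted p = 0.00171), but its call was lost without treated replicate 1 (1.45) or control replicate 2 (1.56). It was the 1 called of 34 probe sets in the IL-6 and SOCS list. None of the 23 for NF-κB and its feedback inhibitors was called, and 2 passed the adjusted p. Tnf was 5.67, 5.42 and 5.68 in the control mice and 5.57, 5.88 and 5.51 in the treated mice, and the groups overlapped. None of 15 probe sets for the IL-17, IL-22 and IL-20 axis was called. Of the 17 genes in that list, 6 had no tested probe set with a single gene symbol. Il22 was among these 6, so nothing is said here of its level. Il20, Il24 and the epithelial cytokine Tslp differed by 0.05, 0.24 and -0.52 with adjusted p values of 0.927, 0.584 and 0.236. The neutrophil attractant Cxcl2 rose from 3.37, 3.18 and 3.49 to 6.17, 6.18 and 6.84 (8.27-fold, adjusted p = 0.00149), the 1 called of 9 probe sets in its list. Its relative Cxcl1 differed by 0.56 on the brightest probe set (adjusted p = 0.152) and by 0.93 on a dimmer one (adjusted p = 0.0193).

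The paper describes D6 as selective for inflammatory CC chemokines, and whether it binds each member of this list was not checked. Of 16 probe sets in the list, 1 was called. Ccl17, a ligand of CCR4 made by dendritic cells and keratinocytes, was 5.76, 5.52 and 5.93 in the control mice and 6.86, 8.53 and 6.86 in the treated mice. Treated replicate 2 was far above the others, and the change of 1.68 became 1.12 without it and 1.57 without control replicate 2, and was no longer called. Ccl20 differed by 1.05 (adjusted p = 0.0404) and the monocyte attractant Ccl2 by 0.38 (adjusted p = 0.247). Cxcl13, a chemokine for B cells that skin makes constitutively, went the other way, from 9.08, 8.29 and 8.60 to 5.94, 6.40 and 6.28 (5.48-fold lower, adjusted p = 9.08e-05).

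Among the factors that TPA is known to act through, some ligands of the EGF receptor were called at the 3-fold threshold and no AP-1 gene was. Of 23 probe sets for these ligands and receptors, 3 were called higher: amphiregulin (Areg, 4.44-fold), epiregulin (Ereg, 4.28-fold) and epigen (Epgn, 3.91-fold). Areg was 4.30, 4.66 and 4.53 against 7.64, 5.86 and 6.45, without overlap, and the call of Epgn was lost without control replicate 2 (adjusted p = 0.0522). Hbegf rose 2.73-fold (adjusted p = 4.66e-04), under the fold threshold. None of 35 probe sets for AP-1 and other immediate early factors was called, which does not stand out from 1.77%. Of the 35, 11 passed the adjusted p upward and 2 downward, and of the 23 in the EGF list 6 and 4. Over all tested probe sets 11.4% passed it upward and 12.7% downward. Whether the 2 lists differ was not tested. Junb rose 1.44-fold (adjusted p = 0.0175), and Fos varied as much within the groups as between them (11.46, 9.54 and 10.54 against 11.64, 9.64 and 9.36).

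Ornithine decarboxylase (Odc1), the rate-limiting enzyme of polyamine synthesis and a long-used readout of TPA, was 10.09, 10.09 and 10.33 in the control mice and 11.14, 10.02 and 10.72 in the treated mice, and the groups overlapped (adjusted p = 0.173). The called genes of its list were Arg2, the arginase that makes ornithine (6.45-fold), and Smox, spermine oxidase (4.71-fold). Prostaglandin synthase 2 (Ptgs2) overlapped likewise, with an adjusted p of 0.529. In the same list the lipoxygenases Alox8 and Alox15 rose 6.09-fold and 5.94-fold, and prostaglandin D synthase, Ptgds, by 1.71. Tissue remodelling genes were split. The glycoprotein tenascin C (Tnc, 9.83-fold), the hyaluronan synthase Has3 (4.85-fold), collagenase 3 (Mmp13, 4.07-fold) and the protease inhibitor Timp1 (3.13-fold) rose, the last losing its call without treated replicate 1 or control replicate 3. Fibronectin (Fn1), fibrillin (Fbn1) and the protease urokinase (Plau) fell by 2.27, 2.34 and 1.92. A dimmer probe set of Plau differed by -0.51 (adjusted p = 0.308). Of 61 probe sets for collagens and matrix 5 were called, and of 38 for metalloproteinases and the plasminogen system 3.

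Genes of the cell cycle and DNA replication rose as a group. Of 78 probe sets, 30 (21 genes) were called higher and 0 lower, 63 passed the adjusted p upward, and the median change was 1.24. Bub1, a checkpoint kinase of mitosis, was 5.34, 5.14 and 5.76 in the control mice and 8.27, 7.09 and 8.33 in the treated mice (5.59-fold, adjusted p = 2.61e-05). Cdk1, the kinase that starts mitosis, rose 4.41-fold, Uhrf1, which maintains DNA methylation in S phase, 4.31-fold and cyclin A2 (Ccna2) 4.18-fold. The proliferation marker Mki67 rose 2.61-fold (adjusted p = 0.0033), under the fold threshold. Treated replicate 2 had the lowest level in all 30 called probe sets. The count was 39 without that mouse and 19 without treated replicate 3. It was 27 within the bright hybridization set and 10 within the dim set, which held treated replicates 2 and 3 and 1 control.

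Hair follicle genes included the largest single rise. Of 48 probe sets for hair keratins and their associated proteins, 13 (12 genes) were called higher and 0 lower, while the median change of the list was 0.49. The called genes belonged mostly to the inner root sheath, the sleeve that moulds the growing hair: besides Krt25 these were Krt73 (84.9-fold), Krt27 (44.6-fold), Krt71 and Krt28 (by 4.88 and 4.89) and trichohyalin, Tchh (by 3.09). Krt73 was 3.92, 4.70 and 3.85 in the control mice and 11.43, 8.96 and 11.30 in the treated mice. The hair shaft keratin Krt35 was 3.86, 4.11 and 4.22 against 11.06, 8.27 and 10.87 (64.2-fold), and Krt85 rose by 3.96. In all 13 probe sets treated replicate 2 was the lowest of the treated mice, as it was in the cell cycle genes, and it was above every control mouse. Leaving out treated replicate 1 or replicate 2 gave 9 and 14 calls.

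Some regulators of follicle growth and some pigment genes of follicular melanocytes rose as well. In the hair cycle list 6 of 57 probe sets were called higher and 0 lower. Sonic hedgehog (Shh), the signal that drives the growing follicle downward, was 5.08, 4.80 and 5.71 in the control mice and 9.31, 7.46 and 9.61 in the treated mice (12.1-fold, adjusted p = 6.89e-06). A dimmer probe set of Shh differed by 0.77 (adjusted p = 0.0945). The Shh target Gli1 rose 4.37-fold, and the transcription factors Msx2 and Hoxc13 of the hair matrix 6.31-fold and 3.91-fold. Hoxc13 lost its call without treated replicate 1 or replicate 3, and without replicate 1 the count of the list fell to 3. Of 15 probe sets for pigment genes, 8 were called higher and 0 lower. Tyrp1, an enzyme of melanin synthesis, was 4.93, 5.62 and 5.35 against 9.11, 7.72 and 9.64 (11.5-fold), tyrosinase (Tyr) rose 8.62-fold, Dct 7.78-fold and the melanosome protein Si (now Pmel) 9.25-fold. Treated replicate 2 was again the lowest in all of these. Within the dim hybridization set 1 hair cycle probe set and 0 pigment probe sets were called, within the bright set 4 and 6. The stage of the hair cycle of each mouse is not given in the sources used here. Its part in the rises of the hair keratin, hair cycle and pigment genes was not tested.

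Of 45 probe sets for clock genes, 2 were called higher and 2 lower, 11 passed the adjusted p upward and 7 downward, and the median change was -0.03. Nr1d1 (Rev-erbα), a repressor whose level cycles over the day, was 8.19, 8.21 and 8.91 in the control mice and 5.98, 5.97 and 5.97 in the treated mice (5.51-fold lower, adjusted p = 9.71e-09). Cryptochrome 1 (Cry1) was 6.61, 6.38 and 6.87 against 8.38, 8.23 and 8.35 (adjusted p = 6.41e-10), 3.25-fold higher or, without control replicate 2, just under 3-fold (1.58), and Per2, another repressor of the clock, rose by 2.26. Npas2, an activator, fell by 1.88. The 6 day 1 arrays of both genotypes had Nr1d1 at 5.64 to 6.30, under each of the other 24 arrays of the series (7.35 to 8.91), and Cry1 at 8.18 to 8.38, above each of them (6.38 to 7.55). The hour of sampling is not given in the sources used here, and its part in these values was not tested.

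Some lipid genes of the sebaceous gland fell. Of 26 probe sets for sebaceous gland lipid genes, 6 (4 genes) were called lower and 0 higher, with a median of -0.51. Besides Scd3, these were Fa2h, a fatty acid hydroxylase (5.30-fold lower), Far2, which makes wax alcohols (5.16-fold lower), and Cidea, a lipid droplet protein (4.40-fold lower). Fa2h was 12.05, 11.55 and 11.99 in the control mice and 9.63, 9.66 and 9.08 in the treated mice, without overlap. Far2 lost its call without treated replicate 3 (adjusted p = 0.0524). Elovl3, a fatty acid elongase of the same gland, was 10.79, 10.19 and 10.61 against 9.54, 9.27 and 8.80, also without overlap but with an adjusted p of 0.136. None of 26 probe sets for adipocyte genes and none of 68 for fatty acid and cholesterol synthesis was called, and of the latter 19 passed the adjusted p downward.

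Skeletal muscle genes had the lowest median of the lists, -1.21. Of 31 probe sets, 10 (5 genes) were called lower and 0 higher, and 26 passed the adjusted p downward. Myh4, the myosin heavy chain of fast fibres, was 13.48, 13.09 and 13.55 in the control mice and 10.67, 10.65 and 11.30 in the treated mice (5.67-fold lower, adjusted p = 1.73e-04). Actn3, Ttn and Ryr1, which encode a fast-fibre actinin, titin and the calcium release channel, fell 4.68-fold, 4.57-fold and 4.23-fold. How much of the muscle sheet each skin sample held was not recorded in the sources used here, and its part in the fall was not tested.

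Among the other large falls were Crp, C-reactive protein (9.07-fold), Panx3, a pannexin channel (6.20-fold), Ifitm6, of the interferon-induced transmembrane family (6.22-fold), the mucin-like Mucl1 (5.89-fold), Timd4, a receptor of tissue macrophages for dying cells (5.64-fold), and Pnpla5, a lipase (5.53-fold). A dimmer probe set of Panx3 differed by -0.11 (adjusted p = 0.666). Timd4 was 7.32, 7.06 and 7.21 in the control mice and 4.22, 5.34 and 4.53 in the treated mice. The progesterone receptor, Pgr, fell 7.88-fold, but its mice varied (9.90, 8.76 and 8.45 against 6.33, 5.20 and 6.64), and its adjusted p of 0.0473 rose to between 0.0624 and 0.164 when any 1 of the 6 arrays was left out.

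Markers of leukocytes did not move together at day 1. Of 21 probe sets for neutrophil markers, 1 was called, Stfa2l1, a stefin named above, and the granule gene Ngp differed by 1.04 (adjusted p = 0.393) while Mpo was lower by 1.54 (adjusted p = 0.0268). Over the list, 2 probe sets passed the adjusted p upward, Stfa2l1 among them, and 3 downward. The summed intensity of the neutrophil markers was 2422 to 2776 in the control mice and 3023 to 5328 in the treated mice. This sum holds Stfa2l1, which went from levels of 5.47 to 6.25 to levels of 10.38 to 11.69. The higher sum therefore does not show a rise of the other neutrophil markers. Of 23 probe sets for macrophages and monocytes, 1 was called, Chi3l3 (4.09-fold higher), and 8 passed the adjusted p downward. The summed intensity of the macrophage markers was 36834 to 41411 in the control mice and 23965 to 25486 in the treated mice, without overlap, and Mrc1, a mannose receptor of resident macrophages, was lower by 0.82 (adjusted p = 0.00177). Of 24 probe sets for T cells 0 were called, and 14 passed the adjusted p upward (11.4% of all tested). Of the 24, 7 were matched to the T cell receptor beta entry alone. None passed it downward. The summed intensity of the T cell markers was 4107 to 5312 in the control mice and 5031 to 5848 in the treated mice, which overlap. This sum holds Thy1, its brightest gene and also a member of the fibroblast list. Thy1 was at 11.28 to 11.79 in the control mice and 11.14 to 11.47 in the treated mice. The overlap of the sums therefore does not show that the other T cell markers were unchanged. Of these, Lck was higher by 1.49 (adjusted p = 3.22e-06) and Cd3e by 0.07 (adjusted p = 0.797).

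The D6 gene is expressed by lymphatic endothelium. In WT skin its brightest probe set was at 8.10, 8.04 and 8.54 in the control mice and 6.69, 7.24 and 6.86 in the treated mice, a change of -1.30 (SE 0.25, adjusted p = 4.43e-04) that did not reach 3-fold. This probe set did not separate the genotypes, since the WT arrays ran from 6.69 to 8.54 and the D6-deficient arrays from 6.59 to 8.09. The probe set that did separate them differed by -0.70 (adjusted p = 0.0392). The list of lymphatic endothelium markers holds Ccbp2 itself. Without it, the summed intensity of the other 6 genes was 3187 to 4354 at day 0 and 1898 to 2380 at day 1. Of their 9 probe sets 2 passed the adjusted p downward and 0 upward. The 1 called was of the hyaluronan receptor Lyve1 (-1.60, adjusted p = 0.0364), and 0 were called without control replicate 1 or without treated replicate 1. A brighter probe set of Lyve1 differed by -1.29 (adjusted p = 0.125), and Prox1, the transcription factor that defines these vessels, by -0.05 (adjusted p = 0.902). The part of these cells in the fall of Ccbp2 was not tested.

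Over all tested probe sets 1.77% were called, and 12.7% passed the adjusted p downward. Of 44 probe sets for interferon-induced genes, 1 was called, the helicase-like Ddx60 (4.35-fold lower), which is near the 1.77%. In this list 16 passed the adjusted p downward and 0 upward, with a median of -0.41, and the rest passed in neither direction. Without control replicate 3, 4 were called. Ddx60 was 8.06, 7.72 and 7.48 in the control mice and 5.56, 5.56 and 5.78 in the treated mice. Irf7, a transcription factor of this response, differed by -0.63 (adjusted p = 0.0581), and none of 5 probe sets for the interferon-induced CXCR3 chemokines passed either threshold. Of 24 probe sets for complement, 0 were called and 16 passed the adjusted p downward (median -0.59). Likewise 19 of 41 for glycolysis and glucose transport passed it downward, and none was called. The lists for antioxidant genes (50 probe sets), endothelial adhesion (25), MHC class I (26), and dendritic (24), mast (15) and fibroblast (13) markers had no called probe set. In lists of these sizes 0 calls do not stand out from 1.77%.

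Part of the genes called higher at day 1 were near their day 0 level in the day 2 mice. Each day was sampled from separate mice, so a change over days cannot be told apart from a difference between sets of mice. Between day 1 and day 2, limma called 82 probe sets in WT skin (0.228%), 39 higher (0.108%) and 43 lower (0.119%) at day 2. Of the 335 probe sets called higher at day 1, 35 (31 genes) were called lower at day 2 than at day 1, and 33 of the 35 were then within 2-fold of day 0. In the hair keratin list 10 probe sets and in the pigment list 7 had an adjusted p under 0.05 for a lower level at day 2 (0.566% of all tested). Krt25 had means of 3.84, 11.50, 3.88, 3.88 and 12.31 at days 0, 1, 2, 4 and 6, and Shh of 5.20, 8.80, 5.44, 5.42 and 9.16. In D6-deficient skin the means of Krt25 on the same days were 4.07, 12.46, 3.82, 4.19 and 12.83. At day 6, 34 of the 35 probe sets were more than 3-fold above day 0 in WT skin, against 194 of the other 300 called higher at day 1. In 34 of the 35, treated replicate 2 was the lowest of the day 1 mice, against 235 of the other 300. These comparisons share the day 1 arrays, so a high array at day 1 enters both.

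Many epidermal genes were still high at day 2. The mean of Krt6b was 13.35 at day 1, 14.26 at day 2 and 14.40 at day 4, and that of Sprr1b 12.13, 13.14 and 13.03. Of the 300 probe sets called higher at day 1 and not called lower at day 2, 195 had a day 2 mean above the day 1 mean. By day 4 the epidermal genes had parted, which was not tested. The means at days 1, 2 and 4 were 11.94, 11.90 and 7.53 for Flg, 9.33, 10.06 and 3.96 for Serpinb12, and 13.38, 13.53 and 9.14 for Krt1, so that at day 4 all 3 were under their day 0 means of 8.84, 5.62 and 11.66. The day 4 means of Casp14 and Ivl were 9.78 and 9.99, against 11.77 and 11.85 at day 1. Defb3 rose by a further 3.83 from day 1 to day 2 (adjusted p = 9.22e-04), Lce3a by 2.93 (adjusted p = 0.00673) and Serpinb3a by 2.35 (adjusted p = 0.00202). Bub1 was at 7.63 on day 2 against 7.90 on day 1 (adjusted p = 0.81). Among the genes that fell, Nr1d1 was at 8.25 on day 2, higher than on day 1 by 2.28 (adjusted p = 2.19e-07), whereas Scd3 was at 6.01. Of the 301 probe sets called lower, 17 were within 2-fold of day 0 on day 2. The methods' t-test after the same adjustment called 0 probe sets between day 1 and day 2, and 97 at an unadjusted p.

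**Figure D4:**
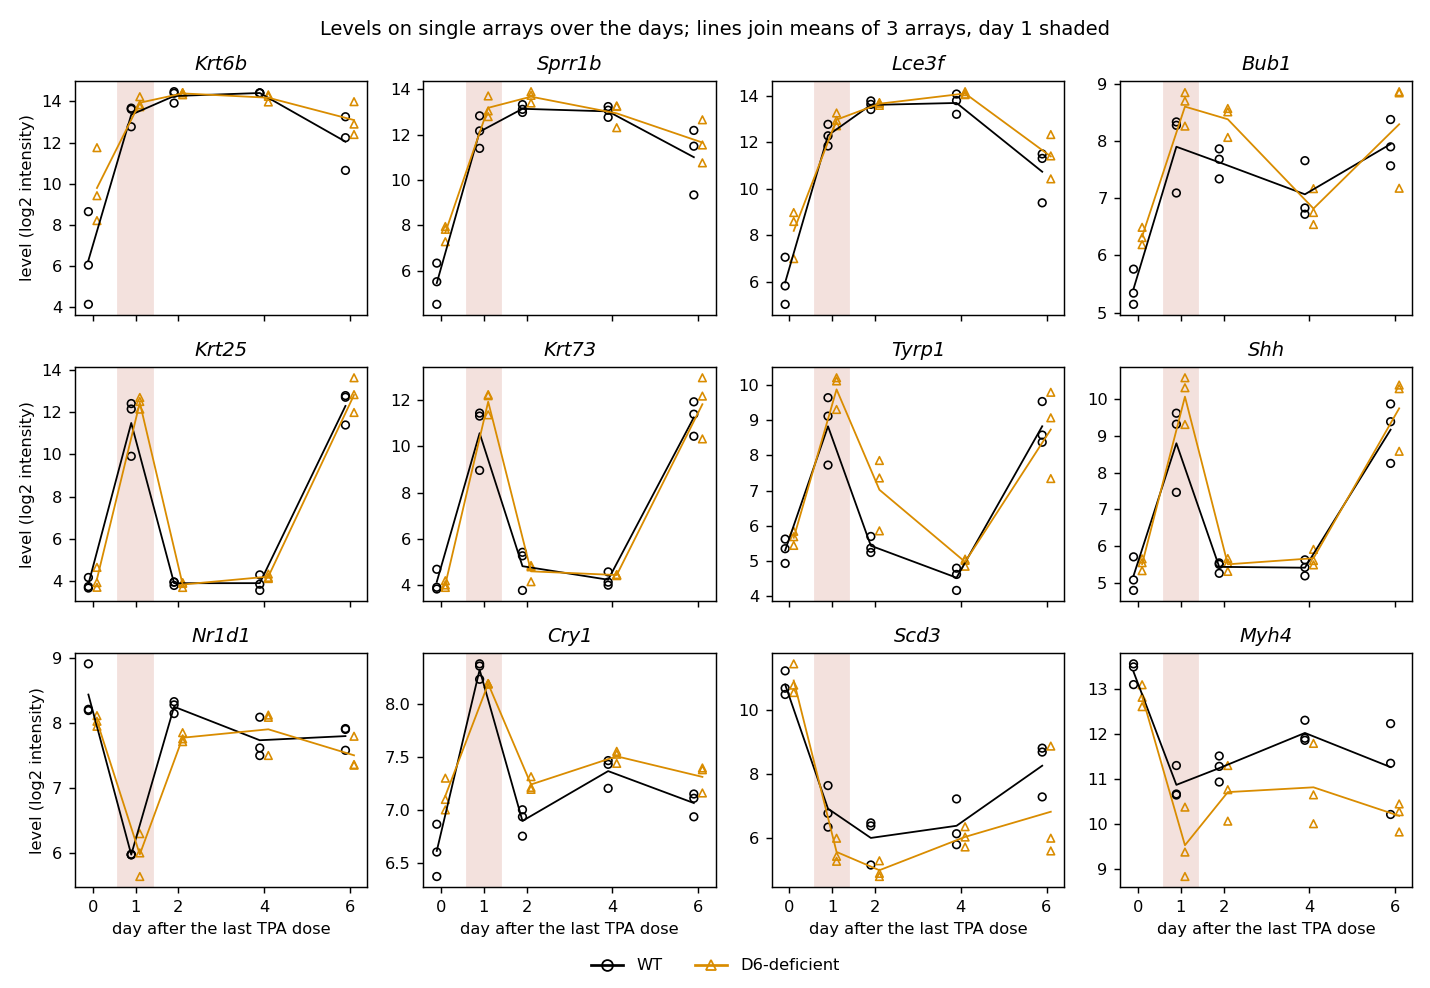
Level on single arrays (y axis, log2 intensity) against day after the last TPA dose (x axis) for 12 genes in WT (circles) and D6-deficient (triangles) skin, with lines through means of 3 arrays and day 1 shaded. Krt25, Krt73, Tyrp1 and Shh are high at days 1 and 6 and low at days 0 and 4, whereas Krt6b, Sprr1b and Lce3f stay high from day 1 to day 4, and Nr1d1 and Cry1 stand apart at day 1.

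The day 1 change in D6-deficient mice did not enter the contrast that made these calls, although their arrays share its estimate of spread and the filter on low levels. Of the 335 probe sets called higher in WT skin, 333 changed in the same direction in D6-deficient skin, 210 were more than 3-fold higher there (62.7%, against 1.08% of all tested) and in 322 (96.1%, against 25.8%) the day 1 and day 0 mice did not overlap. Of the 301 called lower, 297 had the same direction, 217 were more than 3-fold lower (72.1%, against 1.43%) and 282 (93.7%, against 24.1%) did not overlap. The median change of the probe sets called higher was 2.03 in WT and 1.86 in mice lacking D6. For those called lower it was -1.84 and -2.07. Krt25 rose from a mean of 4.07 to 12.46 in D6-deficient skin, Nr1d1 went from 8.03 to 5.98 and Scd3 from 10.93 to 5.58.

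Stress and barrier genes such as Krt6b had higher day 0 means in D6-deficient skin, which was not tested here. Krt6b had a day 0 mean of 9.79 there and of 6.28 in WT skin, and day 1 means of 13.93 and 13.35. The difference between the changes was -2.93 (SE 1.12, adjusted p = 0.374). For S100a8 it was -2.35 (SE 0.83, adjusted p = 0.328) and for Il1f6 -1.83 (SE 0.62, adjusted p = 0.304). Cxcl13 fell in WT skin and was 7.33 and 7.10 in D6-deficient skin, a difference of 2.23 (SE 0.57, adjusted p = 0.176). Over all probe sets, limma called 1 for a day 1 change that differed between the genotypes (0.00278%), and 7 passed the adjusted p (0.0194%). On day 1 itself, 5 probe sets were called between the genotypes (0.0139%), 1 higher (0.00278%) and 4 lower (0.0111%) where D6 was missing. A p above the threshold does not show that the genotypes responded alike.

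**Figure D5:**
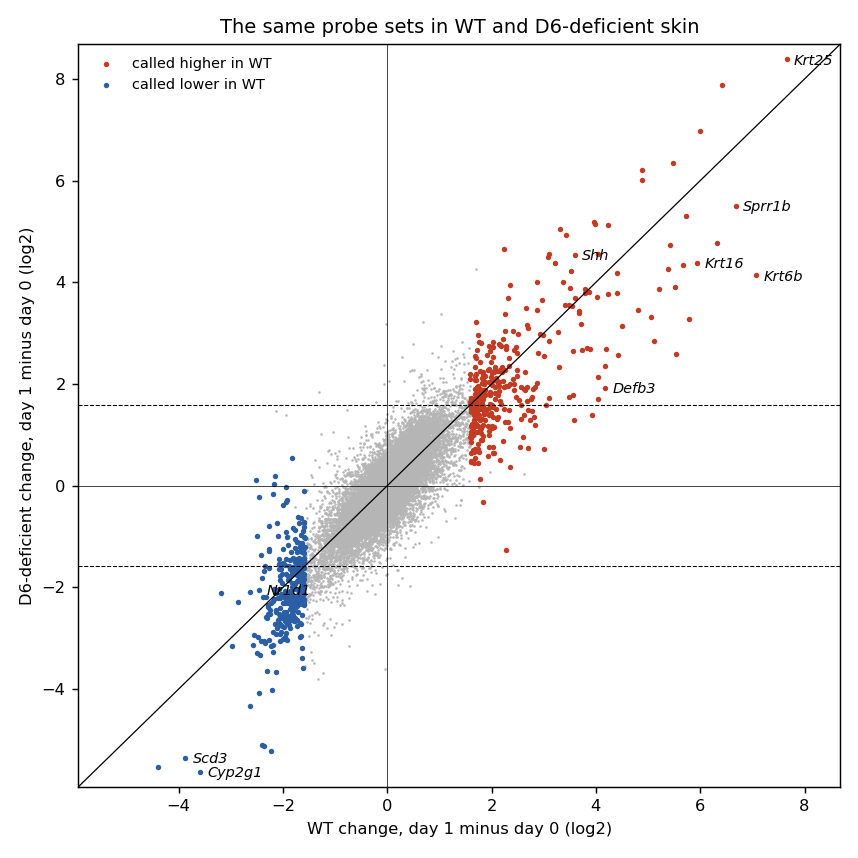
Change at day 1 in D6-deficient skin (y axis, log2) against that in WT skin (x axis, log2) for every tested probe set, with probe sets called in WT in colour, the diagonal as a line of equal change and dashed lines at 3-fold in D6-deficient skin. Of the 335 red points 333 lie above 0 and of the 301 blue points 297 below it, while Krt6b, Sprr1b and Defb3 lie under the diagonal.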

How the data were processed

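Whole back skin of separate mice was hybridised to Affymetrix Mouse430_2 arrays, 3 for each genotype and day. The authors summarised the arrays by RMA (background correction, quantile normalization and probe set summarization) in GeneSpring GX and deposited linear intensities, 1 column per array, with no array-level depth beyond their number; these intensities were taken to log2. Of 45101 probe sets, 64 controls and the dimmest 20% by mean were left out. A limma model (limma 3.58.1, R 4.3.3) with a mean per group was fitted to all 30 arrays, and adjusted p is its Benjamini-Hochberg value over the 36029 probe sets tested. On simulated arrays with independent normal noise in each probe set, it called 97% of planted log2 changes of 2 and 100% of 3 at day 1, with 0 false calls. Shifts shared by many probe sets of an array, as in day 1 replicate 2, were not simulated. These figures are therefore not the error rates on the real arrays.

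Genes were named by rule: the 12 largest rises and falls called without overlap, up to 4 such genes per list, and known TPA genes regardless of call. The genes, lists and comparisons were chosen with earlier results of these data known. Replicate numbers were not used to pair the mice. Deviations of same-numbered day 0 and day 1 arrays correlated weakly, at 0.078, 0.062 and 0.164. Each of these was above the values of differently numbered arrays (-0.162 to 0.055). Alternatives covered centring, filters, thresholds, arrays fitted, the methods' t-test, hybridization set, replicate block and leaving out each array. Promoters came from RefSeq (GRCm38.p6). Python 3.11.15, pandas 2.3.3 and matplotlib 3.10.9 were used. The result of 1 of the 7 probe sets whose day 1 change differed between the genotypes is not reported here.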

Additional observations from a re-analysis of the deposited data

Results flagged for a closer look

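For 7 probe sets limma's test of the difference between the genotypes in their day 1 change passed the adjusted p, and each difference given here for 6 of them is the D6-deficient change minus the WT change on the log2 scale. C130079G13Rik, a gene known by its RIKEN clone, had the largest, -2.158 (adjusted p = 0.00296), with means of 5.35 and 5.54 at days 0 and 1 in WT skin and of 7.30 and 5.34 in D6-deficient skin. The chemokine receptor Ccr9 differed by 1.530 (adjusted p = 0.0303), from 6.01 to 6.61 in WT and from 4.02 to 6.16 in D6-deficient skin. Ak4, an adenylate kinase, differed by -1.380 (adjusted p = 0.0303), from 7.55 to 8.53 and from 8.86 to 8.46. Pcf11, a factor of transcript 3′ end formation, differed by -0.982 (adjusted p = 0.0244), from 7.35 to 8.09 and from 7.86 to 7.62. Probe sets without a single gene symbol differed by -1.467 (adjusted p = 0.00521) and -1.391 (adjusted p = 0.0303). In these 6 the day 0 means of the genotypes were further apart than the day 1 means.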

How the results depend on the processing

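The day 1 comparison gave 636 calls, and 8660 with no fold threshold, 1940 at 2-fold, 413 with 1 probe set per gene and 349 by the methods' t-test after adjustment. Leaving out 1 array gave 498 to 722. Within the bright and dim hybridization sets 759 and 534 probe sets were called, of which 494 and 395 were shared with the 636. With the replicate block the count was 638, and the block changed no call of a named gene. Of 82 called named genes, 17 lost the call within the bright set, 24 within the dim set and 31 by the adjusted t-test, and none of the 82 changed direction. Only genes that were not called did: Tnf (-0.025 without control replicate 2, with a range of -0.050 to 0.133 over left-out arrays), Il20 (-0.057 without control replicate 3, range -0.070 to 0.194) and Fos (1.138 within the bright set, 0.123 without treated replicate 3, range -1.018 to 0.170). The causes were not tested.

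Day 2 against day 1 gave 82 calls, 432 with no fold threshold, 172 at 2-fold, 30 when only its arrays were fitted, 4 within the bright set, 18 within the dim set and 0 by the adjusted t-test. It gave 39 without day 1 replicate 3 and at most 92 without another array. The genotype difference of the day 1 change gave 1 call, 0 with the dimmest 50% left out, 8 on its arrays alone, 7 with no fold threshold, 6 at 2-fold, 108 by the t-test and 2 after adjustment, 2 with the hybridization set as covariate, 19 within the dim set, 2 with the replicate block and 1 to 5 without an array. The genotypes on day 1 gave 5 calls, 2 with the dimmest 50% left out, 9 on their arrays alone, 20 with no fold threshold, 17 at 2-fold, 30 by the t-test and 0 after adjustment, 2 with 1 probe set per gene, 1 within the bright set, 15 within the dim set and 3 to 9 without an array. The number of arrays limits the precision.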
